A study of Mus musculus with 13 samples.

Results

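The microvillus cytoskeleton genes described here are 10 genes, chosen by name: Vil1, Pls1, Espn, Ezr, Myo1a, Myo7b, Cdhr5, Cdhr2, Ush1c and Eps8. All 10 were measured, among 17097 genes in all, and each is represented by the probe set that names only that gene and has the highest mean. The data are 13 arrays (Affymetrix HT MG-430 PM) of sorted or isolated epithelial cells. All cells came from C57BL/6 mice that carry the Lgr5-EGFP-ires-CreERT2 knock-in, in which GFP is driven by the Lgr5 promoter, and each sample combined 3 mice. The sources used here do not give the ages of the mice. The 4 GFP_High arrays hold small intestinal stem cells, the 3 GFP_Low arrays hold intestinal cells sorted at a low GFP level, which the study takes as close descendants of the stem cells, the 3 Villus arrays hold differentiated villus epithelium, and the 3 hair bulge arrays hold cells sorted from skin at a low GFP level by their titles and the methods. Whether a gate was used for the Villus cells is unclear from the sources used here. The Villus and hair bulge groups follow the cell type label. The GFP_High and GFP_Low groups follow the titles, because 1 label field gives the opposite GFP level for GFP_High replicate 2 and for GFP_Low replicates 2 and 3. That field also reads high for the Villus and hair bulge arrays. The comparisons ask how the level of these genes differs along the path from stem cell to villus. They also ask how it differs between the intestinal groups and the low-GFP cells of the hair bulge, which the study takes as stem cells.

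Microvilli are finger-like folds of the apical membrane, each held up by a core of parallel actin filaments, and their dense array on absorptive enterocytes forms the brush border. Villin (Vil1), plastin 1 (Pls1, also called fimbrin) and espin (Espn) bundle the filaments of the core, ezrin (Ezr) ties the membrane to them, and myosin 1a (Myo1a) is a motor that bridges core and membrane. The protocadherins Cdhr2 and Cdhr5 link the tips of neighbouring microvilli, and the scaffold harmonin (Ush1c) and the motor myosin 7b (Myo7b) belong to the same link complex, while Eps8 caps and bundles actin at the tips.

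The bases before the start site are shown for the 2 protocadherins, for Vil1 and for Ezr. By the test used below, Ezr was the only gene of the 10 that was higher in hair bulge than in GFP_High. Each run holds the 250 bases before the start, 5′ to 3′ on the strand of the gene, from RefSeq on GRCm38.p6, and the capitals mark CG dinucleotides. Vil1 is taken from chr1:74409134-74409383 on the plus strand, Cdhr2 from chr13:54701213-54701462 on the plus strand, Cdhr5 from chr7:141276787-141277036 on the minus strand and Ezr from chr17:6782781-6783030 on the minus strand.
Vil1: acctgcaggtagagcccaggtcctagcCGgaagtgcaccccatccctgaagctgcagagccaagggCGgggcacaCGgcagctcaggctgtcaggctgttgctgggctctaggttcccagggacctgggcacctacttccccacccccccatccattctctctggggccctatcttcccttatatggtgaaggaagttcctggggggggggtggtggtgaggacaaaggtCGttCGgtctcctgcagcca
Cdhr2: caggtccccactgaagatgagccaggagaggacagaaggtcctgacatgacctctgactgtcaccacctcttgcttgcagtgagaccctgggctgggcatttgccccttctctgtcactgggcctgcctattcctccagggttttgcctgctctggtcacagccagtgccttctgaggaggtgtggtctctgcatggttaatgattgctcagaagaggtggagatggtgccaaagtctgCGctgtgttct
Cdhr5: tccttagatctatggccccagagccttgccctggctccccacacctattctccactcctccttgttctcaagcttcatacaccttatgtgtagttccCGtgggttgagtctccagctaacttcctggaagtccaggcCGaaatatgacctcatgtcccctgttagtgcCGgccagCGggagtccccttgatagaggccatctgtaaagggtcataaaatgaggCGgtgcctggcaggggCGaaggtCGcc
Ezr: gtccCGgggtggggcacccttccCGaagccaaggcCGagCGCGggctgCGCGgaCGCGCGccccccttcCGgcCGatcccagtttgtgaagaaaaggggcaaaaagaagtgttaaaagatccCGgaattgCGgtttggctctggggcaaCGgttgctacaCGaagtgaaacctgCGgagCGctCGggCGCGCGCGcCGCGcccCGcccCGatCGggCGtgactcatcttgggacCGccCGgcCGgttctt
The Ezr run holds 32 CG dinucleotides in 250 bases, more than 95.4% of the 32851 such windows of all promoters, whose median is 6. Cdhr2 has 1, Vil1 has 5 and Cdhr5 has 7. Other windows of the genes with an entry hold between 1 (Myo1a) and 11 (1 of the 3 of Espn). Short motifs of intestinal factors were searched on both strands, after the sequences had been seen. The letters CAAAGTC, a core of HNF4 sites, are in the Cdhr2 window 14 bases before the start and in 3.84% of all windows. The letters of a nuclear receptor repeat, CAAAGGTC, are in the Vil1 window 20 bases before the start and in 1.01% of all windows. The CDX core TTTATG is in the Cdhr5 window 34 bases before the start on the reverse strand, in 1 Espn window, and in 10.76% of all windows. GTTAAT, part of HNF1 sites, is in the Cdhr2 window 49 bases before the start and in 6.43% of all windows. Neither the TCF/LEF core CTTTGAT (3.21% of all windows) nor TATAAA (12.37%) is in any of the 10 windows of 8 genes. The HNF4, nuclear receptor repeat and TCF/LEF letters share CAAAG, which stands on the reverse strand in CTTTGAT, so that matches to them can overlap. The matches describe letters only.

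Values are intensities on a linear scale, to which the authors' processing had been applied, and differences are log2 values from limma with the standard error of the fit. The number of arrays limits the precision. As a floor, the 95th percentile over 84 probe sets of smell, pheromone and bitter taste receptors was used, an intensity of 7.9, which is called the receptor level. On single arrays, 49.2% to 52.6% of all probe sets were above it, so a marker above this level on 1 array is weak evidence of expression. Arrays of a group correlated at 0.978 to 0.994 over all genes. The 75th percentile of intensity was 37.6 on GFP_Low replicate 1 and 40.6 to 52.1 on the others. Marker lists followed the labelled tissue. The summed intensity of 8 stem cell markers was 9044 to 11313 in GFP_High, 2959 to 3955 in GFP_Low and 190.3 to 262 in Villus, where Lgr5 and Ascl2 were not above the receptor level. In hair bulge they summed to 1025 to 1266, with 7 of the 8, all but Olfm4, above the level on at least 1 array. The 7 measured of 9 enterocyte markers summed to 384 to 788 in GFP_High, 3492 to 6949 in GFP_Low, 43872 to 45508 in Villus and 47.5 to 50.0 in hair bulge. The 7 measured of 8 keratinocyte markers summed to 26092 to 29081 in hair bulge and to at most 1083 in the other groups.

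All 10 genes were highest in Villus. Relative to GFP_High, 10 of 10 were higher in Villus (22.6% of all genes were called higher in this comparison), by between 0.99 on the log2 scale for Ush1c and 5.06 for Cdhr5, with a median of 2.72 beside 0.02 for all genes. Relative to GFP_Low, 10 of 10 were higher in Villus (20.8% of all genes were called higher and 21.3% lower), by 0.90 to 4.21, with a median of 2.53 beside 0.02. Between GFP_Low and GFP_High, 4 of the 10 were higher in GFP_Low (6.32% of all genes), 0 were lower (10.4% of all genes) and 6 did not pass the test. Their median was 0.47 beside -0.04 for all genes. The genes higher in GFP_Low were Cdhr5, Myo1a, Cdhr2 and Vil1. The arrays of Villus did not overlap with those of GFP_High or of GFP_Low for any of the 10 genes (52.9% and 50.0% of all genes did not overlap), and those of GFP_Low and GFP_High did not overlap for 5 (26.5% of all genes). The calls are those of limma at an adjusted p under 0.05, with the Benjamini-Hochberg procedure over all genes. In these bulk samples, fewer cells of a type and less RNA per cell cannot be told apart.

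**Figure D1:**
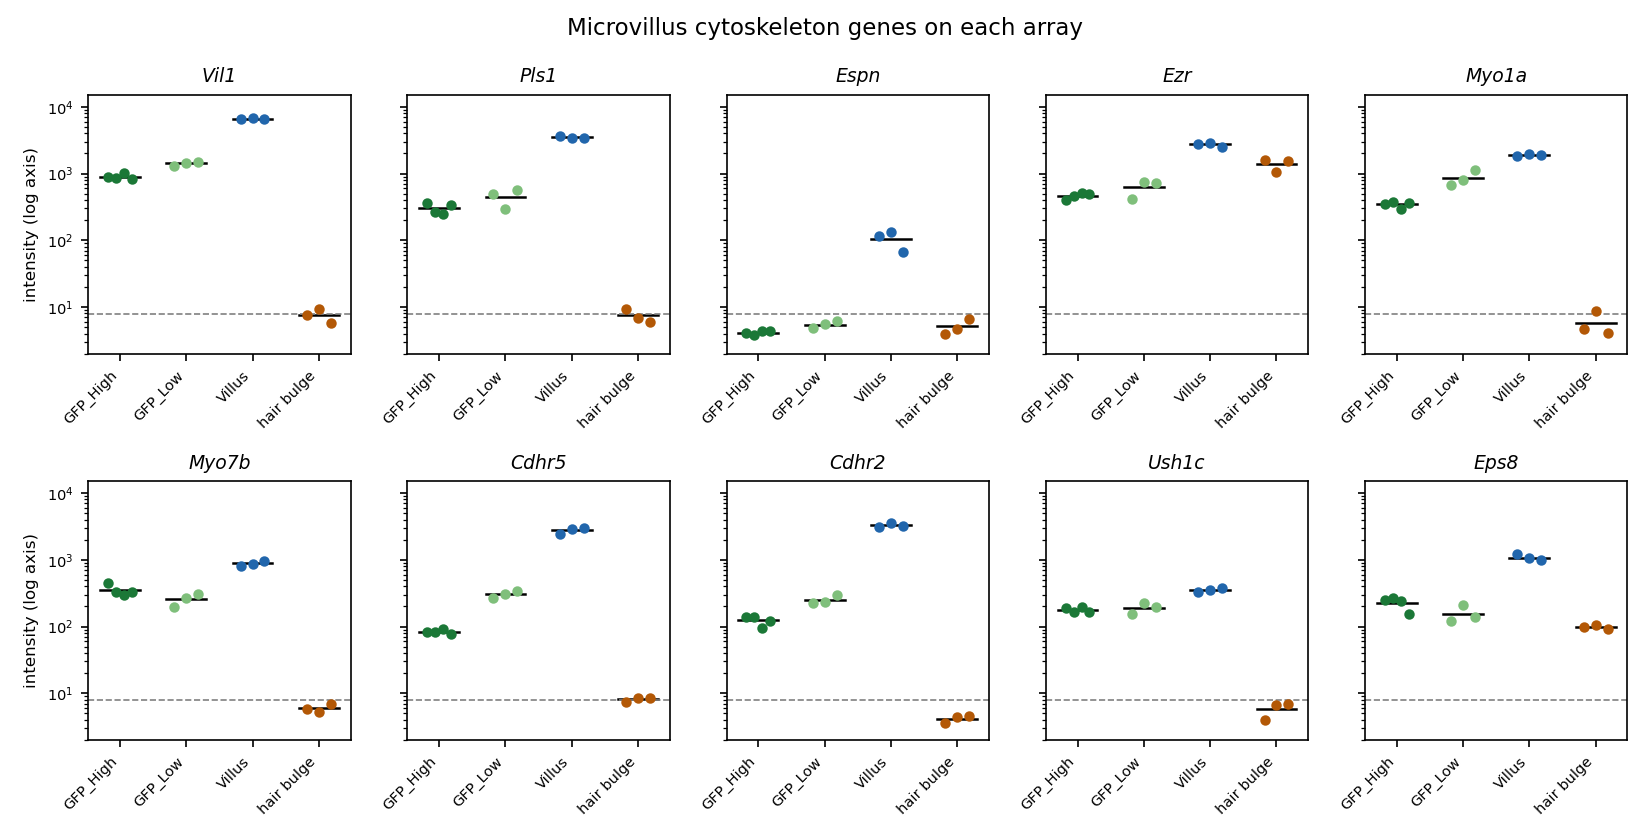
Intensity (log axis) of the 10 microvillus cytoskeleton genes on each of 13 arrays, 1 panel a gene. Points are arrays, bars are group means, and a dashed line marks the receptor level of 7.9; the Villus points lie above those of the other groups in all 10 panels, and only Ezr and Eps8 lie clearly above the line in hair bulge.

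Villin, the first of the bundlers, was higher at both steps from stem cell to villus. Vil1 read 888, 857, 1016 and 839 in GFP_High, 1309, 1459 and 1499 in GFP_Low, and 6639, 6687 and 6447 in Villus. The 3 intestinal groups formed 3 separate steps with no overlap. Vil1 was higher in GFP_Low than in GFP_High by 0.66 ± 0.15 (log2 ± SE, limma adjusted p = 0.00649), and higher in Villus than in GFP_Low by 2.22 ± 0.16 (limma adjusted p = 5.09e-08). From GFP_High to Villus the difference was 7.35-fold, between means of 899.9 ± 79.7 (SD, n = 4) and 6591 ± 127 (SD, n = 3).

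Plastin 1 cross-links filaments into the tight bundles of the core. Pls1 read 357, 261, 250.1 and 338 in GFP_High, 499.7, 295 and 559 in GFP_Low, and 3707, 3442 and 3410 in Villus. GFP_Low replicate 2 lay within the range of GFP_High, and the difference of 0.55 ± 0.22 did not pass the test (limma adjusted p = 0.114). Without that array it was 0.83 (limma adjusted p = 0.0121). Villus exceeded GFP_Low by 3.02 ± 0.24 (limma adjusted p = 1.41e-07) and GFP_High by 11.8-fold.

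Espin differed from the other 9 genes in that its only signal above the receptor level was in Villus. Espn read 3.8 to 4.3 in GFP_High, with a median of 4.2, and 4.8, 5.5 and 6.1 in GFP_Low, all 7 values under the receptor level, so that no fold is given between these groups. In Villus it read 116, 131 and 67.2, the widest relative spread of the 10 genes in this group, at 105 ± 33.3 (SD, n = 3). Villus exceeded both GFP groups by at least 12.7-fold (limma adjusted p = 4.28e-10 against GFP_High and 5.08e-09 against GFP_Low), with none of their arrays above the level.

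Ezrin, the membrane linker, was higher in Villus than in both GFP groups. Ezr read 401, 455, 504 and 493 in GFP_High, 417, 752 and 717 in GFP_Low, and 2781, 2866 and 2515 in Villus. GFP_Low replicate 1, the array with the lowest 75th percentile, lay within the range of GFP_High and the others lay above it. The difference of 0.40 ± 0.20 did not pass the test (limma adjusted p = 0.225). It passed with each array scaled by its 75th percentile, at 0.57 (limma adjusted p = 0.0342), a scaling under which the median of all genes was 0.13, and without GFP_Low replicate 1, at 0.67 (limma adjusted p = 0.0204), and was at 0.24 without GFP_Low replicate 2. Villus exceeded GFP_Low by 2.16 ± 0.22 (limma adjusted p = 1.74e-06) and GFP_High by 5.89-fold.

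Myosin 1a was higher at both steps, as villin was. Myo1a read 354, 376, 292 and 363 in GFP_High, 674, 803 and 1122 in GFP_Low, and 1835, 1937 and 1872 in Villus. The groups did not overlap, and GFP_Low had the larger spread, at 866 ± 230.4 (SD, n = 3). The gene was higher by 1.30 ± 0.23 in GFP_Low than in GFP_High (limma adjusted p = 0.00139) and by 1.15 ± 0.24 in Villus than in GFP_Low (limma adjusted p = 0.00138). These comparisons share the GFP_Low arrays.

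Of the 9 genes above the receptor level in GFP_High, the protocadherins had the largest differences between GFP_High and Villus. Cdhr5 read 83.7, 83.8, 90.6 and 76.0 in GFP_High, 264, 306 and 340 in GFP_Low, and 2456, 2879 and 3033 in Villus. Its lowest GFP_Low array was well above its highest GFP_High array, and the difference of 1.86 ± 0.13 was the largest of the 10 genes between these groups (limma adjusted p = 2.73e-07). In Villus it was higher than in GFP_Low by 3.20 ± 0.13 (limma adjusted p = 4.24e-10) and than in GFP_High by 33.3-fold.

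Cdhr2, its partner across the gap between microvilli, read 138, 140.3, 96.2 and 122 in GFP_High, 222, 231 and 297 in GFP_Low, and 3114, 3573 and 3150 in Villus. The groups again did not overlap. The GFP_Low arrays exceeded those of GFP_High by 1.01 ± 0.16 (limma adjusted p = 0.000531), and Villus exceeded GFP_Low by 3.72 ± 0.17 (limma adjusted p = 7.8e-10) and GFP_High by 26.7-fold.

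The scaffold and the motor of the link complex had the smallest differences of the 10 genes between GFP_High and Villus. Ush1c read 190, 167, 194 and 165 in GFP_High, 156, 224 and 197 in GFP_Low, and 334, 354 and 376 in Villus. The GFP groups overlapped, with a difference of 0.09 ± 0.18 (limma adjusted p = 0.826). Its sign turned without GFP_Low replicate 2. Villus exceeded GFP_High by 1.99-fold and GFP_Low by 0.90 ± 0.19 (limma adjusted p = 0.00159).

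Myo7b, the motor that carries the link complex toward the tips, read 444, 332, 294 and 332 in GFP_High, 194, 264 and 312 in GFP_Low, and 816, 869.5 and 964 in Villus. The GFP groups overlapped, and the value of -0.46 ± 0.18 for GFP_Low minus GFP_High did not pass the test (limma adjusted p = 0.1). With 1 array left out it ran from -0.61 to -0.27, the latter without GFP_Low replicate 1. Villus was 2.54-fold above GFP_High (limma adjusted p = 1.53e-05).

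Eps8, the tip protein, was higher in Villus than in both GFP groups. It read 246, 268, 239.8 and 152 in GFP_High, 119.6, 207 and 137 in GFP_Low, and 1205, 1052 and 981.5 in Villus. The GFP groups overlapped through GFP_High replicate 4 and GFP_Low replicate 2, and the value of -0.56 ± 0.21 did not pass the test (limma adjusted p = 0.0862). It passed without either of these arrays, at -0.74 (limma adjusted p = 0.0169) and at -0.79 (limma adjusted p = 0.0174). Villus exceeded GFP_High by 4.85-fold and GFP_Low by 2.84 ± 0.22 (limma adjusted p = 1.47e-07). Eps8 is the only one of the 10 with further probe sets of its own, and both of these had the same sign in each comparison.

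The comparison of the GFP groups changed without the arrays whose label field opposes their title. In the groups by title, with these arrays included, the sums of the stem cell markers did not overlap. They were 9044 to 11313 in GFP_High and 2959 to 3955 in GFP_Low. Without these 3 arrays, GFP_Low is a single array, which is assumed to vary like the other groups. Then 2 of the 10 genes were higher in GFP_Low, Cdhr5 and Cdhr2, and 1 was lower, Myo7b at -0.85 (limma adjusted p = 0.0432). Vil1 was at 0.52 (limma adjusted p = 0.188) and Myo1a at 1.01 (limma adjusted p = 0.0745).

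Markers of other cells moved with these groups. The 7 goblet cell markers summed to 1602 to 2978 in GFP_High, 25679 to 29698 in GFP_Low and 23156 to 24598 in Villus, and 8 enteroendocrine markers to 161.5 to 299.8, 4375 to 5481 and 1479 to 2266. The 3 measured of 6 Paneth cell markers summed to 711 to 1438 in GFP_High, 5025 to 9240 in GFP_Low and 278 to 393 in Villus. The 7 myeloid cell markers summed to 2230 to 4609 in GFP_High, 7693 to 12737 in GFP_Low and 281 to 554 in Villus. In each GFP group 4 of the 7 were above the receptor level on at least 1 array, and in Villus 6 were. Itgam, Adgre1 and C1qa were not above it in either GFP group, and Itgam was not above it in Villus. The myeloid list holds Lyz2, and the Paneth cell list holds the related gene Lyz1. Both sums were highest in GFP_Low and lowest in Villus. A sum can rest on 1 bright gene, so it does not measure the number of myeloid cells. The 8 lymphocyte markers summed to 45.9 to 64.6 in the GFP groups and to 1709 to 2455 in Villus. There, 7 of the 8 were above the receptor level on at least 1 array. Tuft cells are another intestinal type with villin-rich microvilli. Their 7 measured of 8 markers summed to 49.2 to 63.4 in GFP_High, 77.8 to 144.6 in GFP_Low and 146.5 to 179.7 in Villus. In each intestinal group 4 of the 7 were above the receptor level on at least 1 array. Pou2f3, Gfi1b and Hpgds were not above it on any intestinal array. The part of these cell types in the differences of the 10 genes was not tested.

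**Figure D2:**
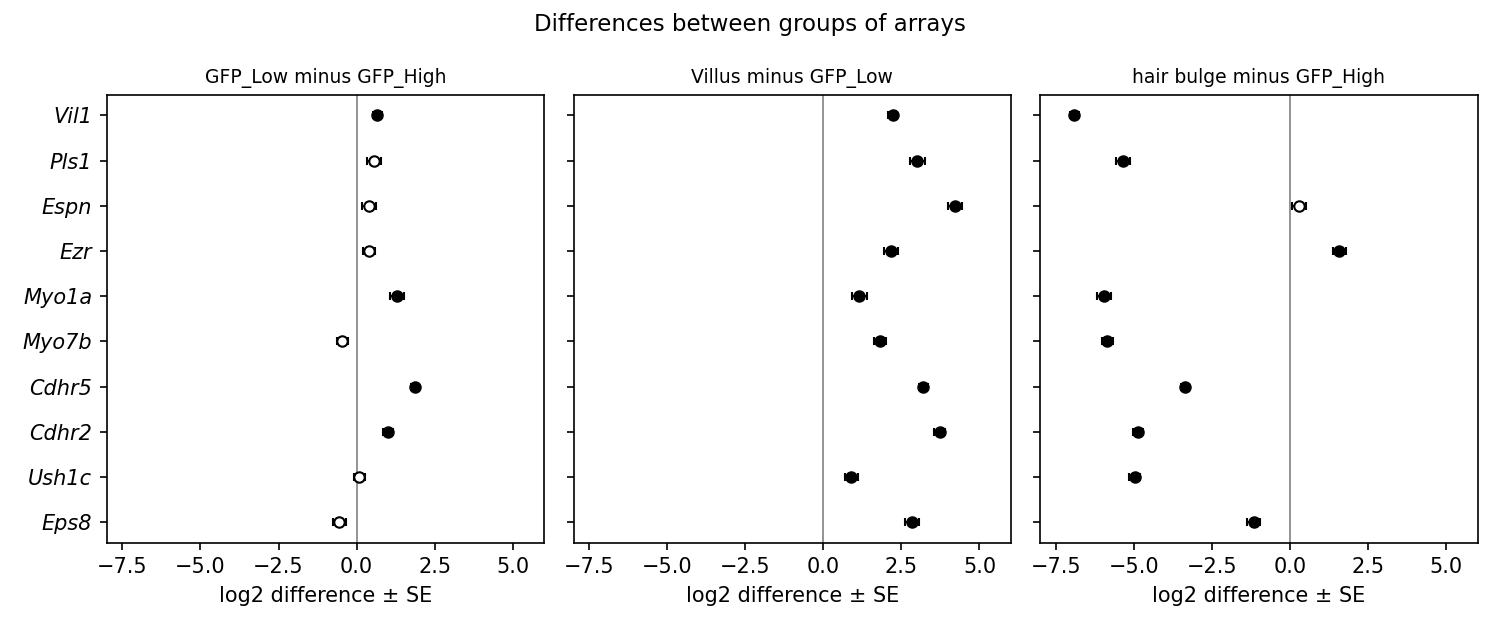
Difference in log2 intensity with its standard error (limma) for the 10 genes, for GFP_Low minus GFP_High, Villus minus GFP_Low and hair bulge minus GFP_High, 1 panel each. Filled points passed an adjusted p under 0.05; 4 are filled in the first panel, all 10 in the second, and in the third 8 are filled to the left of 0 and Ezr to the right.

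Hair bulge cells, sorted at a low GFP level, were compared with GFP_High. Of the 10 genes, 8 were lower in hair bulge (29.1% of all genes were called lower) and Ezr was higher (19.4% of all genes were called higher). Espn did not pass the test. The median of the 10 was -4.94 on the log2 scale beside -0.06 for all genes. Against GFP_Low the counts were also 8 lower (25.2% of all genes) and 1 higher (21.0% of all genes), and against Villus all 10 were lower in hair bulge (27.4% of all genes). These comparisons share the hair bulge arrays. The arrays did not overlap for 9 of the 10 genes against GFP_High and against GFP_Low (51.2% and 50.2% of all genes did not overlap), and for all 10 against Villus (59.7%). Titles of the sorted arrays carry a number whose meaning they do not state, taken here as a sort code. Hair bulge replicate 2 shares this code with GFP_High replicate 3 and GFP_Low replicate 2. The hair bulge arrays share only this 1 code with the intestinal ones. The 6 melanocyte markers summed to 734.9 to 952.8 in hair bulge, with all 6 above the receptor level on at least 1 array. In the other groups they summed to at most 68.3, and their part in the hair bulge results was not tested.

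For 7 of these genes the hair bulge signal was at the receptor level, so their differences are lower bounds. Vil1 read 7.7, 9.3 and 5.8 in hair bulge, with 1 of 3 arrays above the level, and was at least 107.6-fold lower than in GFP_High and at least 790.1-fold lower than in Villus. Pls1 read 9.5, 6.9 and 6.0 (at least 35.4-fold lower than in GFP_High, 1 of 3 arrays above the level). Myo1a read 4.7, 8.6 and 4.1 (at least 42.4-fold, 1 of 3 arrays). Each of these 3 genes of the core was at or under the receptor level on 2 of the 3 hair bulge arrays.

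The link complex was also at this level in hair bulge. Cdhr5 read 7.4, 8.4 and 8.6 (at least 10.1-fold lower than in GFP_High, 2 of 3 arrays above the level) and Cdhr2 read 3.6, 4.4 and 4.5 (at least 15.5-fold, 0 of 3 arrays). Ush1c read 4.0, 6.6 and 6.8 (at least 22.6-fold, 0 of 3 arrays) and Myo7b read 5.9, 5.2 and 6.9 (at least 43.8-fold, 0 of 3 arrays). Among these 7 genes the largest limma adjusted p against GFP_High was 7.62e-11, for Pls1. Espn read 4.0, 4.7 and 6.7, under the level as in both GFP groups.

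Ezr and Eps8 were the exceptions with signal on all 3 hair bulge arrays. Ezr, whose protein acts at the cell cortex of many epithelia, read 1610.1, 1045 and 1532 in hair bulge, all above the highest GFP_High array. It was higher than in GFP_High by 1.57 ± 0.20 (limma adjusted p = 1.37e-05), or 2.97-fold, and higher than in GFP_Low by 1.17 ± 0.22 (limma adjusted p = 0.000411). It was lower than in Villus by 1.98-fold (limma adjusted p = 0.00133). Eps8 read 99.7, 105 and 92.9, lower than in GFP_High by 2.24-fold (limma adjusted p = 0.000275) and than in Villus by 10.8-fold (limma adjusted p = 6.48e-09). Against GFP_Low the difference of -0.60 ± 0.22 had an adjusted p of 0.0389 (limma), and it did not pass in 11 of the 16 other settings run.

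Related genes of the same families showed other patterns, as the plot of ezrin, plastin and Eps8 relatives sets out. Radixin (Rdx) and moesin (Msn), which with ezrin make up the ERM linkers, were at or near the receptor level in the GFP groups. Rdx read 932, 773 and 869 in hair bulge (at least 108.3-fold higher than in GFP_High, limma adjusted p = 1.49e-10) and Msn read 552, 485 and 678 (at least 71.7-fold, limma adjusted p = 5.78e-11). In Villus Rdx read 27.1, 15.9 and 7.6 and Msn 21.2, 24.4 and 9.8. Rdx and Msn were called higher in Villus than in GFP_High, by at least 1.88-fold and 2.17-fold, beside lymphocyte markers that were also higher there, and the part of lymphocytes was not tested. The Villus arrays of Rdx overlapped with GFP_High. Of the 3 linkers, Ezr was the only one above the receptor level on every intestinal array. Merlin (Nf2), a relative that acts as a growth suppressor, was lower than in GFP_High by 1.38-fold in Villus (limma adjusted p = 0.0326) and by 1.70-fold in hair bulge (limma adjusted p = 0.00125).

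**Figure D3:**
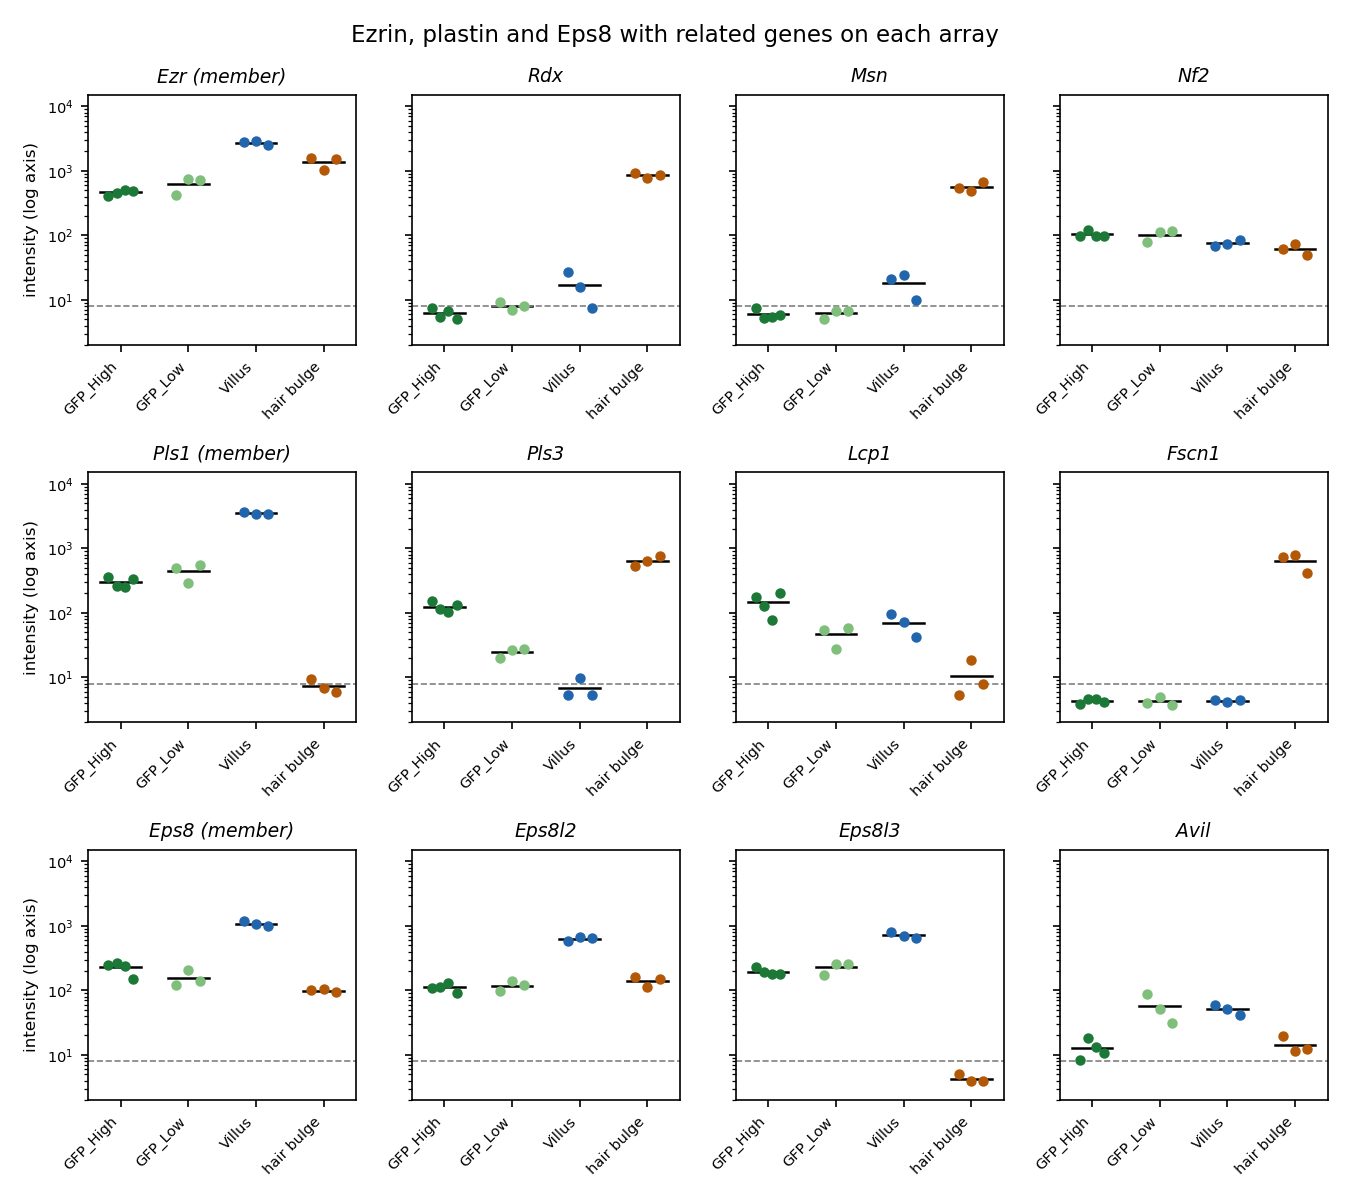
Intensity (log axis) of Ezr, Pls1 and Eps8 with related genes on each array, 1 panel a gene. Points are arrays, bars are group means, and a dashed line marks the receptor level of 7.9; Rdx, Msn and Fscn1 stand high in hair bulge only, and Pls3 is lower in GFP_Low than in GFP_High where Pls1 is not.

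The plastins differed in direction between the groups. Plastin 3 (Pls3), a plastin of many solid tissues, read 150.2, 114, 103 and 133 in GFP_High, 20.1, 26.5 and 27.8 in GFP_Low, and 5.3, 9.9 and 5.3 in Villus. It was lower in GFP_Low than in GFP_High, at -2.33 ± 0.22 (limma adjusted p = 7.56e-06), and lower by at least 14.5-fold in Villus relative to GFP_High, where Pls1 was 11.8-fold higher. In hair bulge Pls3 read 539, 636 and 752, higher than in GFP_High by 2.36 ± 0.22 (limma adjusted p = 5.72e-07). Plastin 2 (Lcp1), known from blood cells, read 178, 128, 78.7 and 203 in GFP_High and 53.3, 27.3 and 58.3 in GFP_Low, with a difference of -1.65 ± 0.44 on the log2 scale (limma adjusted p = 0.0181). In hair bulge Lcp1 read 5.4, 18.4 and 7.9. Fascin (Fscn1), a bundler of filopodia, read 728, 789 and 412 in hair bulge and at most 5.0 on the intestinal arrays, a difference of at least 78.3-fold from GFP_High (limma adjusted p = 1.15e-12).

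Both Eps8 relatives shown were also higher in Villus. Eps8l2 was higher in Villus than in GFP_High by 2.51 ± 0.16 (limma adjusted p = 1.1e-08) and Eps8l3 by 1.89 ± 0.16 (limma adjusted p = 2.21e-07). In hair bulge Eps8l3 read 5.0, 3.9 and 3.9, at least 24.6-fold lower than in GFP_High, while Eps8l2 read 158, 111 and 149 and did not pass the test (limma adjusted p = 0.134). Advillin (Avil), a villin relative that is also a tuft cell marker, read 8.2, 18.1, 13.4 and 10.7 in GFP_High, 89.3, 52.2 and 31.0 in GFP_Low and 58.6, 51.5 and 41.4 in Villus. The GFP_Low arrays exceeded those of GFP_High by 2.12 ± 0.33 (limma adjusted p = 0.000623). Gsn, which encodes the severing protein gelsolin of the villin superfamily, was higher in hair bulge than in GFP_High by 6.75 ± 0.25 (limma adjusted p = 2.8e-11). Of 6 measured relatives of the link complex from the inner ear and elsewhere, 1 was called in Villus against GFP_High, Cdh23, with a mean of 7.1 in Villus, under the receptor level.

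Partners of the 10 genes were taken from lists of the brush border. Of 92 listed partners and relatives, 78 were measured, and 45 were higher and 10 lower in Villus than in GFP_High, with a median of 0.71 (log2) beside 0.02 for all genes, of which 22.6% were called higher and 26.3% lower. In GFP_Low against GFP_High 15 were higher and 5 lower, beside 6.32% and 10.4% of all genes. In hair bulge against GFP_High 25 were higher and 27 lower, beside 19.4% and 29.1% of all genes, with a median of -0.01. Partners described as higher or lower were called by limma. Both further partners of the link complex were higher in Villus than in GFP_High and lower in hair bulge. Anks4b, the scaffold that joins Ush1c and Myo7b, read 54.6, 54.3, 66.0 and 52.3 in GFP_High, 90.0, 123 and 141 in GFP_Low and 539.6, 531 and 512 in Villus. It was higher in GFP_Low by 1.03 ± 0.14 (limma adjusted p = 0.000242) and in Villus by 9.33-fold (limma adjusted p = 2.97e-10). Calml4, the light chain of Myo7b, read 1798, 1573, 1840 and 1836 in GFP_High and 4259, 3274 and 3138 in Villus, a difference of 2.005-fold (limma adjusted p = 0.00462). In hair bulge Calml4 read 7.4, 4.6 and 6.9, at least 222.5-fold lower than in GFP_High.

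Of 9 measured scaffolds and kinases that act on ezrin, 5 were higher and 2 lower in Villus than in GFP_High (22.6% and 26.3% of all genes). Slc9a3r1 (NHERF1), which binds ezrin to membrane proteins, was 9.57-fold higher in Villus (limma adjusted p = 3.72e-10). Pdzk1, another scaffold of the apical membrane, read 962, 1064 and 1126 in Villus and at most 13.7 on the GFP arrays, a difference of at least 131.1-fold from GFP_High. Stk10, a kinase that phosphorylates ezrin, read 167, 137 and 166 in Villus against 6.0 to 8.7 in GFP_High (at least 19.0-fold, limma adjusted p = 1.79e-10). Lymphocyte markers were also higher in Villus, and the part of lymphocytes in this difference was not tested. Clic5, a protein found with ezrin at the membrane, was higher in GFP_Low than in GFP_High by 2.73 ± 0.24 and in Villus by 5.65 ± 0.24 (limma adjusted p = 3.88e-06 and 2.03e-10). Cd44, a membrane protein that binds ERM proteins, went the other way with a Villus minus GFP_High value of -5.12 ± 0.22 on the log2 scale (limma adjusted p = 1.89e-10). Its level was higher in hair bulge than in GFP_High by 1.79 ± 0.22 (limma adjusted p = 8.13e-06), and Slk, a kinase related to Stk10, was 3.31-fold higher there.

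Among other regulators of the brush border, 10 of 14 measured were higher in Villus than in GFP_High and 1 was lower (22.6% and 26.3% of all genes). The actin nucleator Cobl was higher by 3.33 ± 0.29 (limma adjusted p = 1.93e-07). Tmigd1, an adhesion protein of the brush border, read 189.8, 195 and 71.3 in Villus and was under the receptor level on all GFP_High, GFP_Low and hair bulge arrays, a difference of at least 17.5-fold. Baiap2l1, which binds actin and curved membranes, was 1.69-fold lower in hair bulge than in GFP_High. Cdh17, a cadherin of intestinal epithelium, was higher in Villus by 2.02 ± 0.20 (limma adjusted p = 7.21e-07) and at least 171.8-fold lower in hair bulge than in GFP_High. Of 9 measured unconventional myosins 5 were higher in Villus and 1 lower (the same shares of all genes), among them Myo15b at 3.48 ± 0.21 (limma adjusted p = 4.86e-09) and Myo5b, a motor of apical recycling, at 2.57 ± 0.19 (limma adjusted p = 3.79e-08). Both were lower in hair bulge than in GFP_High, Myo5b by 15.9-fold and Myo15b by at least 11.5-fold. Myo7a, the inner ear relative of Myo7b, was 3.28-fold higher in GFP_Low and 3.55-fold higher in Villus than in GFP_High. Myo1e, a relative of Myo1a with a wide distribution, was 4.07-fold higher in Villus and 6.14-fold higher in hair bulge, and Myo5a was at least 6.66-fold higher in hair bulge. Of the actins themselves, Actb was 1.74-fold higher in Villus than in GFP_High (limma adjusted p = 1.4e-05), and Actg1 was at 0.05 ± 0.10 (limma adjusted p = 0.74).

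Of 14 measured genes of the terminal web, the mesh of myosin, spectrin and keratin on which the cores rest, 6 were higher and 4 lower in Villus than in GFP_High (22.6% and 26.3% of all genes). Keratin 20 (Krt20) was 330.6-fold higher in Villus and 26.7-fold higher in GFP_Low (limma adjusted p = 1.78e-11 and 7.37e-08), while keratin 19 (Krt19) was 3.15-fold lower in Villus (limma adjusted p = 1.32e-06), as was keratin 18 (Krt18), by 3.61-fold. These simple-epithelial keratins were lower in hair bulge than in GFP_High, Krt19 by at least 267-fold, Krt8 by 39.4-fold and Krt18 by 36.6-fold, while the myosin heavy chain Myh10 was at least 8.21-fold higher there. Actn1, an actin cross-linker of focal contacts, was 12.3-fold lower in Villus (limma adjusted p = 1.22e-11). Of 11 measured genes of apical membrane trafficking, 9 were higher in Villus and 0 lower (22.6% and 26.3% of all genes). The sodium/proton exchanger Slc9a3, a cargo of the brush border, read 2260, 2141 and 2339 in Villus and 12.5 to 15.9 in GFP_High, a difference of 160.5-fold (limma adjusted p = 5.05e-11). The fusion proteins Stx3 and Vamp8 were 3.58-fold and 3.37-fold higher in Villus. In hair bulge Stx3 was 3.82-fold higher than in GFP_High, while Vamp7 was 2.68-fold lower and the small GTPase Rab8a 2.59-fold lower.

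**Figure D4:**
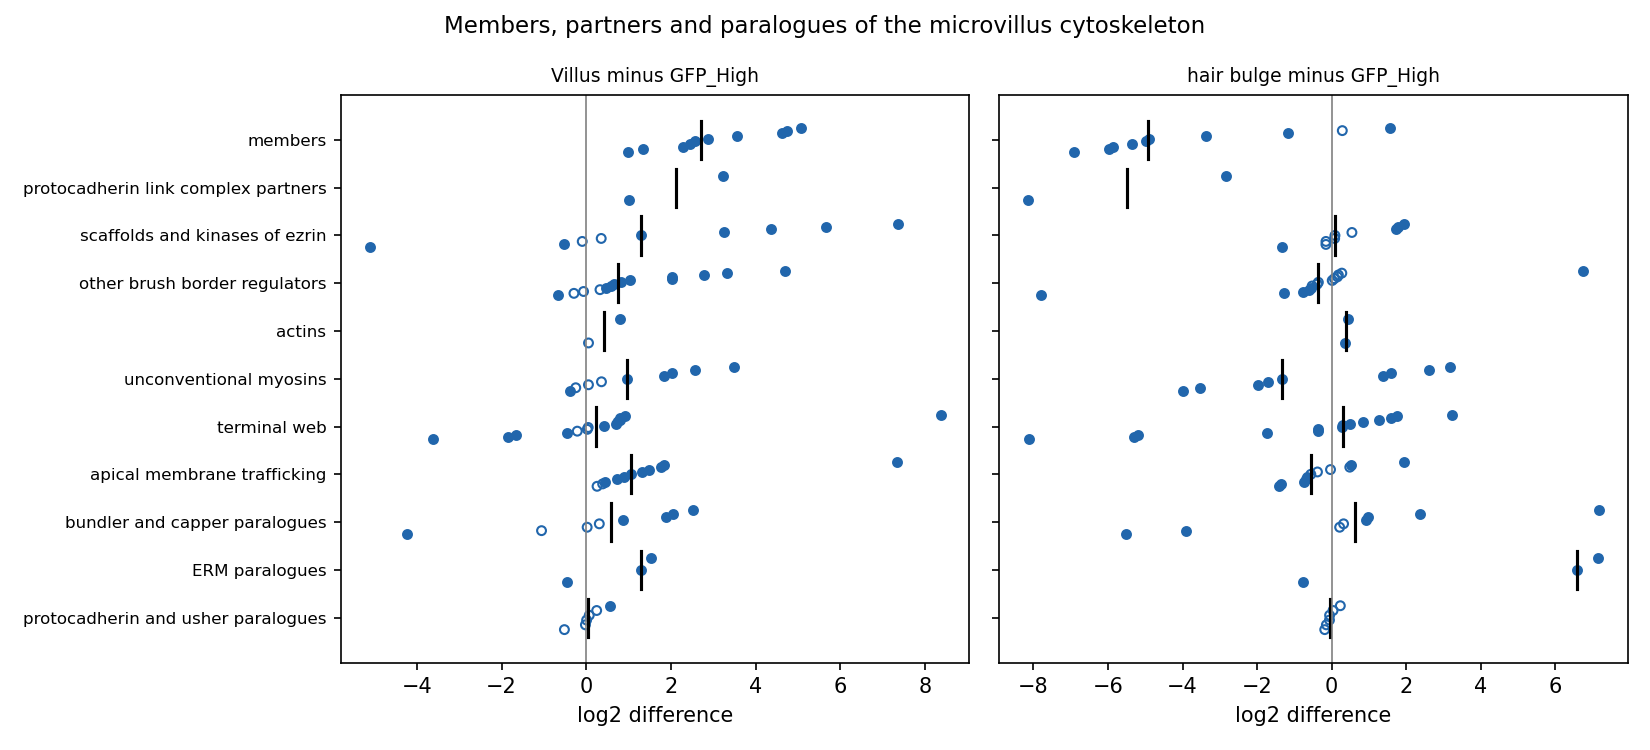
Difference in log2 intensity for the 10 genes (members) and for measured genes of 10 lists of partners and related genes, in Villus minus GFP_High and in hair bulge minus GFP_High. Each point is a gene, filled where limma called it, and the bar is the median of the list; the 10 genes lie to the right of 0 in the first panel, with a median of 2.72, and mostly far to the left in the second, with a median of -4.94.

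The 10 genes varied together to different degrees. Over the 13 arrays, the log2 values of Cdhr2 correlated with the mean of the other 9 standardised genes at r = 0.993, Cdhr5 at 0.983, Pls1 at 0.969 and Vil1 at 0.926. Espn, which was under the receptor level on every array outside Villus, was at 0.742. Ezr, which was higher in hair bulge than in both GFP groups, was at 0.237. Among 11917 genes above the receptor level in at least 1 group, the genes outside the 10 whose log2 values were most like the mean of the 10 were Prr15 (r = 0.9982), Igsf23 (0.9973), Gpd2 (0.9963), Ifi35 (0.9962), Hsd17b11 (0.9956), Samd9l (0.9953), Parp9 (0.9952) and Cbr1 (0.9943). Prr15 averaged 78.7 in GFP_High, 119.8 in GFP_Low, 1264 in Villus and 5.33 in hair bulge. These r values describe 13 arrays that fall into 4 groups and share their normalization, and no test was made of them.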

How the data were processed

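The authors processed the 13 arrays with Affymetrix Power Tools (RMA-sketch, version not given in the sources used here), which corrects background, normalizes across arrays and summarizes each probe set. The deposited intensity values are linear, and log2 was taken of them without normalizing again. Of 45141 probe sets, 28898 name 1 gene, 551 name several and 15692 are not in the table of names used here. For 17097 genes, the probe set brightest on average stood for the gene. Differences came from limma 3.58.1 (R 4.3.3) over all 13 arrays in 4 groups, with Benjamini-Hochberg adjustment over all genes and a threshold of 0.05. Where any array of the lower group was at or under the receptor level (an intensity of 7.9), only a lower bound of the fold is given: the groups' mean log2 values were compared with the arrays of the lower group raised to this level.

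The 10 genes and the lists of partners, relatives and markers were chosen with earlier results of these data known. All 10 genes are named. Of each list, names were drawn from the up to 4 called genes with the largest difference in Villus or in hair bulge against GFP_High, and the 8 genes most like the 10 by correlation are named. Slc9a3r1 falls outside that rule and was chosen after its values were seen. The methods call the arrays of a group biological replicates. Residuals of the 3 pairs of GFP_High and GFP_Low arrays that share a sort code in the titles correlated at 0.291, 0.451 and 0.320. The code was therefore also tried as a block, although the titles do not state what it means. The analysis was tested on simulated data, but the outcome is not given here. Other settings tried were other normalization, other probe sets, an offset of 16 before log2, a filter on low genes, other variance models, the methods' test for single genes, and leaving out arrays. Promoter windows were found for 8 of the 10 genes. Plots were made in Python 3.11.15 with matplotlib 3.10.9.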

Additional observations from a re-analysis of the deposited data

How the results depend on the processing

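Of 946 values of the 10 genes under other settings, 921 kept their direction and their side of the threshold, 14 no longer passed it, 6 newly passed it and 5 changed sign. For Villus against GFP_Low, Villus against GFP_High, and hair bulge against GFP_High and against Villus, all values under the settings run kept both. In GFP_Low against GFP_High without the 3 arrays with an opposing label, the signs of Ezr (-0.153) and Ush1c (-0.23) turned. This leaves 1 GFP_Low array, replicate 1, which had the lowest 75th percentile and is assumed to vary like the others. Leaving out 1 array at a time, between 0 and 1 genes were lower in GFP_Low, with 1 (Eps8) without GFP_High replicate 4 or without GFP_Low replicate 2. The difference of Ush1c ran from -0.026, without GFP_Low replicate 2, to 0.236, and between 4 and 5 genes were higher. In hair bulge against GFP_Low, Espn, under the receptor level in both, was at 0.063 without the 3 arrays and ran from -0.327 to 0.045 with 1 array left out, the highest without hair bulge replicate 1, and the limma adjusted p of Eps8 ran from 0.0511 to 0.49 under the settings that ended its call. By the methods' t-test, 5 of the 10 genes differed between GFP_Low and GFP_High at their threshold of 0.01 (2267 of 17097 genes) and 4 after Benjamini-Hochberg adjustment (1595 genes), and in hair bulge against GFP_Low 7 and 7 (4750 and 5388 genes), with 0 higher, since Ezr did not pass (adjusted p = 0.0704). The causes of these changes were not tested. With the sort code as a replicate block, which pairs 3 GFP_High with 3 GFP_Low arrays, 4 genes were higher and 0 lower, and Vil1 was at 0.64, Myo1a at 1.34, Cdhr5 at 1.86 and Cdhr2 at 1.08, so that the block changed no call of the 10 genes. No paired analysis of the hair bulge comparisons was possible because they share only 1 sort code with the intestinal arrays. Scaling by the 75th percentile moved the median of all genes to 0.13 in GFP_Low and to 0.24 in Villus against GFP_High. Signal near the receptor level limits the hair bulge values to bounds.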
